A study of Mus musculus with 143 samples.

Results

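Immediate early genes were followed across single microglia, the macrophages that reside in the brain, after they had been taken out of the tissue and sorted. The 10 genes were listed by name, among 23337 gene rows of the table, and all 10 were found: Fos, Jun, Junb, Egr1, Atf3, Ier2, Dusp1, Klf6, Nfkbia and Zfp36. All cells belong to 1 group, wild-type C57BL6N male mice at postnatal day 7, with no treatment or transgene in the labels. Cerebella of pooled animals were dounced on ice, myelin was removed with magnetic beads, and live cells with low CD45, CD11b, Gpnmb and Clec7a were sorted into plates and sequenced by Smart-seq2, which reads whole transcripts and carries no molecular identifiers. The 143 cells lie on 2 plates, 95 on plate 1 and 48 on plate 2, and cannot be assigned to an animal. There is no group of cells kept from dissociation, so levels are described, no response is measured, and no test was run. An interval after a share of cells is an exact Clopper-Pearson 95% interval, which covers counting error only.

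Immediate early genes are transcribed within minutes of a stimulus from factors that the cell already holds, without new protein. Their products include transcription factors that pass the signal on and inhibitors that end it. In brain tissue they are also known as genes that isolation procedures can raise, warm enzymatic digestion above all, and so are often read as a sign of handling in microglia. Their mRNAs are short-lived, and AU-rich elements in the 3′ UTR are one reason.

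Cells held 259613 to 1178530 gene counts (median 727276) and 1552 to 4955 detected genes (median 3255). All 9 microglia markers were in the table, with a median share of 100% of cells and Tmem119 lowest at 25.9%. Of the other markers, those of T and NK cells and of B cells were read in 0 cells, Cd163, Lyve1 and Cd209f of border macrophages in 0, and Ly6c2 and Plac8 of monocytes in 0. Mrc1 of border macrophages was read in 55.9% of cells and Ms4a7 in 21.0%. Of the monocyte markers, Fn1 was read in 22 cells, and Ccr2 and Vcan in 3 cells each. Any monocyte marker was read in 27 cells, any neutrophil marker in 10 and any oligodendrocyte marker in 33. Any astrocyte marker was read in 30 cells, any neuron marker in 13 and any endothelial marker in 16. Summed levels ran up to 865 CPM for monocyte, 62.8 for neutrophil, 581 for oligodendrocyte, 701 for astrocyte, 211 for neuron and 213 for endothelial markers. CPM is counts scaled to 1000000 gene counts of a cell, with spike-ins left out.

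Control sequences of 5 of the genes are shown first, with matches to binding motifs known for factors of the pathways under study. Promoter windows, 250 bases before to 50 after the start, come from RefSeq (GRCm38.p6), which held 8 of the 10 genes. Only bases outside annotated exons of the gene are printed, except for Zfp36. Its 29 bases around the CArG box lie before the RefSeq start but within annotated exon sequence of the gene. Capitals mark matches, in either orientation, to TGACG (the core of the CREB and ATF site), TGACGTCA (the full site, which contains TGACG), the NF-kB consensus, TATAAA, and in Zfp36 the CArG box of serum response factor. All sequences read 5′ to 3′ on the gene's strand.
Fos promoter, chr12:85473640-85473889 (plus strand): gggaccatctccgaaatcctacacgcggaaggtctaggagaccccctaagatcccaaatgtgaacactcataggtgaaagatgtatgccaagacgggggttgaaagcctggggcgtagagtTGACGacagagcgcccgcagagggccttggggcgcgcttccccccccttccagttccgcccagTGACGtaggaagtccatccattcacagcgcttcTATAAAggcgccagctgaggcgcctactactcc
Junb promoter, chr8:84978749-84978998 (minus strand): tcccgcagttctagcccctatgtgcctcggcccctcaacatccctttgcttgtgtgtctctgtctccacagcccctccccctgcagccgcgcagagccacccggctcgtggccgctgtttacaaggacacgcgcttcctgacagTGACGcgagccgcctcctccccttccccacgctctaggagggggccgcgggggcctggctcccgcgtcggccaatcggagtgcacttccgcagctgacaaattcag
Nfkbia promoter, chr12:55492648-55492897 (minus strand): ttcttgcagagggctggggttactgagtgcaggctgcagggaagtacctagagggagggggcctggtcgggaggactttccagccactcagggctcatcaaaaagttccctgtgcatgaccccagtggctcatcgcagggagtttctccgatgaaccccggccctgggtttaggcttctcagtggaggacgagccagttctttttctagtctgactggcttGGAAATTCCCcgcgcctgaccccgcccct
Dusp1 promoter, chr17:26508520-26508722 (minus strand): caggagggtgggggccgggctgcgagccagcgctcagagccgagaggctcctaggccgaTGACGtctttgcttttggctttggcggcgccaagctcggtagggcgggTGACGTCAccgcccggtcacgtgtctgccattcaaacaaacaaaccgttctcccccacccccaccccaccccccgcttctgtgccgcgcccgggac
Zfp36 promoter, chr7:28379268-28379296 (minus strand): ccaggccgccCCATAAAAGGagaaagctc

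In Fos, TGACG occurred as a pair of matches, the nearer beginning 66 bases before the start, and TATAAA began 33 bases before it. The full site TGACGTCA lay 143 bases before the start of Dusp1, and was present in 1 of 8 windows of these genes against 1.79% of 32817 windows. TGACG was in 4 of 8 windows, those of Atf3, Dusp1, Fos and Junb, against 20.8% of all. An NF-kB match lay 29 bases before the start of Nfkbia, in 1 of 8 windows against 1.63%, and a CArG box 58 bases before the start of Zfp36, again in 1 of 8 windows against 1.63%. TATAAA was in 3 of 8 windows against 13.6%, but before the start only in Fos. In Junb it began at the start, and in Nfkbia it lay after the start on the opposite strand. The AP-1 site TGANTCA was in 0 of 8 windows against 7.81%. A match is a string of letters and shows no binding.

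The element that ZFP36 protein binds in mRNAs was looked for next, since Zfp36 is among the genes and the others are its possible targets. TATTTAT occurred in the annotated 3′ UTR of 7 of the 10 genes, against 27.6% of 21005 protein-coding genes and 31.3% of the 11835 genes whose 3′ UTR is of a length within that of the 10. Its core ATTTA occurred in 9 of 10, against 65.2% and 78.6%, and Ier2 had 0. The first site of each gene is given on mm10 with TATTTAT in capitals, each within the 3′ UTR.
Fos, chr12:85477103-85477131 (plus strand): tgttttcaattTATTTATtaagatggatt
Jun, chr4:95049079-95049107 (minus strand): ttgcttgtgcaTATTTATaatagcgttcg
Atf3, chr1:191170338-191170366 (minus strand): aaaatattactTATTTATcccagtattcc
Dusp1, chr17:26506159-26506187 (minus strand): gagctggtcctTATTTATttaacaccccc
Klf6, chr13:5868490-5868518 (plus strand): gctacgtctctTATTTATgccttgaggac
Nfkbia, chr12:55489608-55489636 (minus strand): ggaccacgtttTATTTATtgtgcttttga
Zfp36, chr7:28376966-28376994 (minus strand): agtgggcccttTATTTATgacgactttat

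Detection split the genes into 7 that were read in 19.6% to 55.2% of the cells and 3 that were nearly silent. Klf6 was read in 79 cells (55.2%, 46.7 to 63.6), Nfkbia in 62 (43.4%, 35.1 to 51.9), Zfp36 in 42 (29.4%, 22.1 to 37.6), Atf3 in 41 (28.7%, 21.4 to 36.8), Jun in 38 (26.6%, 19.5 to 34.6), Ier2 in 31 (21.7%, 15.2 to 29.3) and Junb in 28 (19.6%, 13.4 to 27.04). Fos and Egr1 followed with 4 cells each (2.80%, 0.767 to 7.01) and Dusp1 with 2 (1.40%, 0.170 to 4.96). The intervals of neighbours in this order overlapped except between Junb and Fos, where a gap separated the groups. A read in at least 10% of cells was found for 7 of the 10 genes, against 7789 of the 12801 genes read in any cell. In at least 50% of cells it was found for 1 of them, against 2197 of the 12801. Over all gene rows, of which 10536 were read in 0 cells, the shares were 33.4% and 9.41%. Under 5% of cells had a read for 3 of the 10, against 27.6% of the 12801 genes read in any cell.

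**Figure D1:**
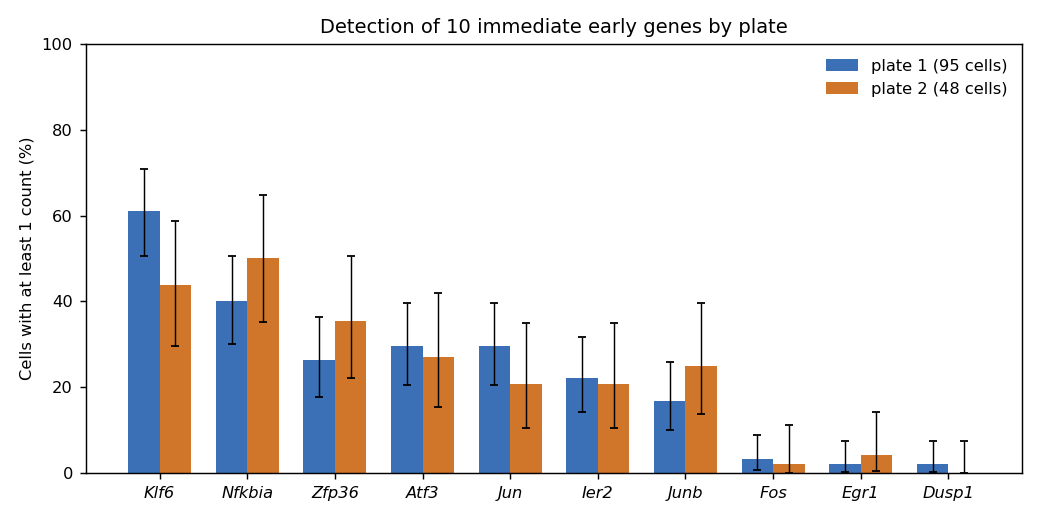
Share of cells with at least 1 count of each gene (vertical axis, percent), for plate 1 (95 cells) and plate 2 (48 cells); bars start at 0 and lines are exact 95% intervals. Klf6 stands at 61.1% and 43.8%, and Fos, Egr1 and Dusp1 lie under 5% on both plates.

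The subunits of AP-1, the dimeric factor made of FOS and JUN proteins and joined by related ATF proteins, ranged from nearly silent to frequent. Fos, which needs a JUN partner, was read at 229 counts (241 CPM) in well D11 of plate 1, 41 counts (70.9 CPM) in B12, 1 count (1.17 CPM) in C8, and 6 counts (12.4 CPM) in well C2 of plate 2. So a single cell held Fos at over 100 CPM, and all 4 cells also had a read of Nfkbia. Fos lies on chromosome 12 from 85473890 to 85477273, plus strand, and no annotated gene overlaps it.

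Jun, the principal JUN subunit, ranged in its 38 cells from 2.73 to 775 CPM with a median of 176. The leading cells were E1 on plate 1 (775 CPM), C10 on plate 2 (567) and A3, G12 and E5 on plate 1 (449, 399 and 393), and together they held 32.2% of the summed level. Junb, a JUN subunit that is a weaker activator, ranged in 28 cells from 1.65 to 1050 CPM with a median of 161. Its highest cell, C2 on plate 2, stood 2.85 times above the next, which had 369 CPM. Jun (chromosome 4, 95049034 to 95052222, minus strand) and Junb (chromosome 8, 84974484 to 84978718, minus strand) overlap Junos and Prdx2 on the other strand, and reads of such partners cannot be told apart here, since the sources used here do not give the strand setting of the counting.

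Atf3, a stress-induced member of the ATF and CREB family that also pairs with JUN, ranged in 41 cells from 1.45 to 1002 CPM with a median of 182. Well B7 of plate 1 led with 1002 CPM, followed by C8 (590) and D12 (430) on plate 1, A2 on plate 2 (400) and F10 on plate 1 (399.6). These cells held 33.3% of its summed level, and the leading cell alone 11.8%. Atf3 spans chromosome 1 from 191170296 to 191218039 on the minus strand, where Gm24748 overlaps it on the other strand.

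The other transcription factors and regulators ran from the most to nearly the least frequent. Egr1, a zinc-finger factor induced through the ERK kinases, was read at 513 counts (1056 CPM) in C2 of plate 2, 67 counts (105.7 CPM) in D2 of the same plate, and on plate 1 at 183 CPM in G3 and 36 counts (42.8 CPM) in E10. Klf6, a Krüppel-like factor, ranged in 79 cells from 1.00 to 560 CPM with a median of 182. Its 5 leading cells held 15.6% of its summed level, the smallest share of the 7 frequent genes. Ier2, a small nuclear protein, ranged in 31 cells from 6.31 to 537 CPM with a median of 100.9, and its 5 leading cells held 43.4%. Klf6 lies on chromosome 13 from 5861482 to 5870394, plus strand, and Ier2 on chromosome 8 from 84661331 to 84662852, minus strand, and no annotated gene overlaps either.

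The feedback inhibitors fell into 3 different patterns. Dusp1, a phosphatase that switches off the p38 and JNK kinases, was read at 202 CPM in B10 and 179 CPM in D1, both on plate 1, and in 0 of 48 cells of plate 2, which allows a share of up to 7.40%. Those were full-sized levels in an otherwise empty row. Nfkbia, which encodes the inhibitor of NF-kB and is itself induced by NF-kB, ranged in 62 cells from 1.62 to 456 CPM with a median of 136.7, and its 5 leading cells held 21.5%. Nfkbia lies on chromosome 12 from 55489410 to 55492647, minus strand, with no overlapping gene, and the annotated span of Dusp1 (chromosome 17, 26505590 to 26562128, minus strand) overlaps Ergic1 and 3 other genes.

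Zfp36, which encodes the mRNA-destabilising protein tristetraprolin, was broad but faint. Its 42 cells ranged from 1.25 to 990 CPM with a median of 7.44, and 24 of them (57.1%) lay under 10 CPM, while for the other 6 frequent genes 5.06% to 9.68% of cells did. More cells under 10 CPM than above it, among those with a read, were found for 1.77% of the 7789 genes read in at least 10% of cells, and for 1 of the 7 genes here. Read in 29.4% of cells, Zfp36 reached 10 CPM in 12.6%, and with every cell thinned to 250000 gene counts it was read in 21.7%. At the upper end, the cell in C2 of plate 2 held 50.0% of its summed level and the 5 leading cells 73.1%. Zfp36 lies on chromosome 7 from 28376784 to 28380253, minus strand, with Gm44710 on the other strand, and the part of antisense reads in its low counts was not tested.

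**Figure D2:**
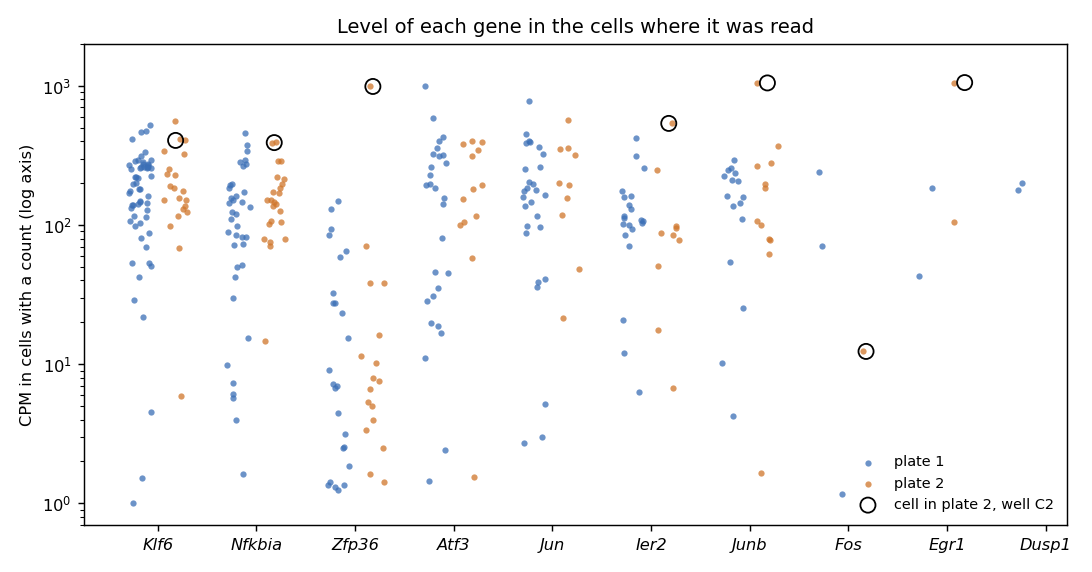
CPM of each gene (log axis) in the cells with a count, by plate, with cells at 0 not drawn; open circles mark the cell in well C2 of plate 2. The frequent genes other than Zfp36 have medians of 100.9 to 182 CPM, whereas Zfp36 has most points under 10 CPM and 1 point at 990.

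Per kilobase of exon, the order of pooled levels was Nfkbia (38.9 CPM per kb), Atf3 (28.4), Klf6 (24.5), Ier2 (19.1), Jun (18.6), Junb (14.4), Zfp36 (3.34), Egr1 (1.61), Fos (1.14) and Dusp1 (0.752). Pooled CPM is the gene's counts over all cells divided by all gene counts. Nfkbia thus led by level and Klf6 by frequency, and Zfp36 came after all the other frequent genes by level.

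How far a level rests on few cells was set beside other genes, the 7215 ranked genes that were read in at least 10% of cells with a pooled CPM of 10 or more. Zfp36 is among them only through the cell in C2 of plate 2, since its pooled CPM was 11.6 with that cell and 6.96 without it. The 5 leading cells held a median of 33.3% of the summed CPM over the 7 frequent genes, of 27.8% over the ranked genes (5th to 95th percentile 9.82 to 57.5), and of 31.6% over the 5938 ranked genes in the range of pooled level that holds the 7 (15.2 to 59.1). At least 50% was held by 5 cells for 1 of the 7, Zfp36, against 11.4% of ranked genes, and the same cell set both its place among them and its share. Without the cell in C2 of plate 2, chosen after its values were seen, the share was 53.4% for Zfp36, 34.8% for Junb and 39.8% for Ier2. Each of these values lies within the percentile range of ranked genes.

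Few cells had many of the genes at once. Of the 10 genes, 0 were read in 17 cells, 1 in 33, 2 in 35, 3 in 21, 4 in 25, 5 in 8, 6 in 3 and 7 in 1. At least 3 were read in 58 cells (40.6%, 32.4 to 49.1), 41.1% of plate 1 and 39.6% of plate 2. At least 3 stood at 100 CPM or more in 22 cells (15.4%, 9.90 to 22.4), 13.7% of plate 1 and 18.8% of plate 2, and at least 4 in 4 cells. The number read per cell had a Pearson r of 0.29 with the number of all genes detected (0.34 on plate 1, 0.22 on plate 2), of 0.00 with gene counts and of -0.24 with the spike-in share over 143 cells. These cells share library preparation, and the correlations are descriptions.

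**Figure D3:**
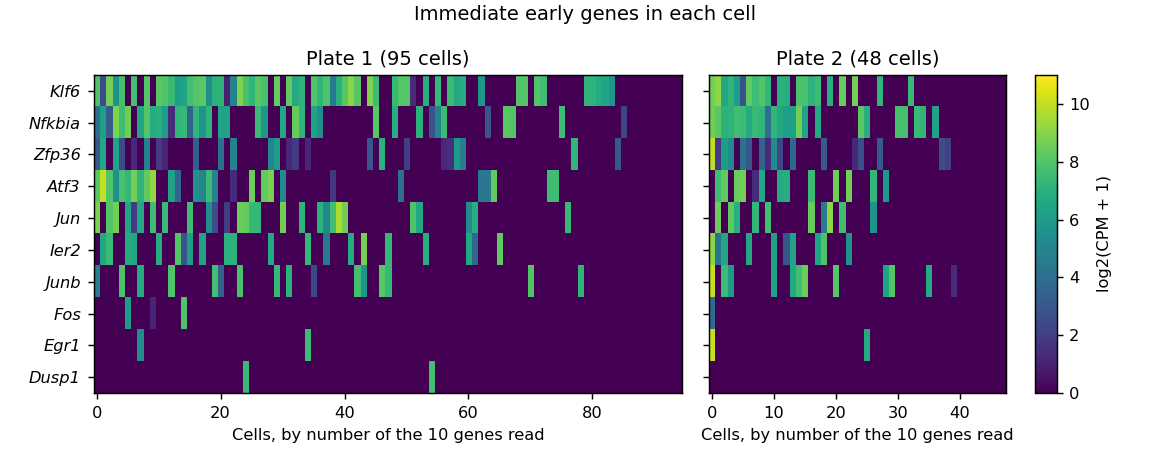
Level of each gene, as log2(CPM + 1) by colour, in every cell of plate 1 (95 columns) and plate 2 (48 columns), ordered from most to fewest of the 10 genes read. The leftmost column of plate 2 is the cell in well C2, with 7 genes read, and no cell has more.

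One cell stood apart. The cell in well C2 of plate 2 had 7 of the genes, 6 of them at 100 CPM or more, and a summed level of 4443 CPM, 3.12 times that of the next cell and 15.4 times that of the median cell (289 CPM). It held Egr1 at 1056 CPM, Junb at 1050, Zfp36 at 990, Ier2 at 537, Klf6 at 406, Nfkbia at 391 and Fos at 12.4. The first 4 had their highest level there, by 5.77 times over the next cell for Egr1, 2.85 for Junb, 6.67 for Zfp36 and 1.26 for Ier2. Jun, Atf3 and Dusp1 were at 0 counts in it, where 3 counts would be 6.18 CPM. Of the AP-1 subunits, Junb was thus high there and Jun and Atf3 were not read.

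The neighbours of these genes in the pathways were then read in the same cell. Tnf, the cytokine that NF-kB induces, was at 313 CPM there, and its 2 other cells had 147 (D12 of plate 1) and 111.1 CPM (D7 of plate 2). Il1b, the interleukin-1 beta gene, was at 115.3 CPM and read in no other cell. By summed level the NF-kB targets as a list did not stand out there, with 646 CPM against a median of 973. Of the 18, 6 were read in 0 cells of the series, 7 were read in it, and 2, Tnf and Il1b, were highest in it. Among ranked genes, to which neither belongs, 2.49% were highest in it. Cd83 was at 100.9 CPM, where its highest cell had 2420, and Sod2 and Bcl2a1b were at 16.5 and 45.3 CPM. Btg2, an antiproliferative immediate early gene, was at 838 CPM against 459 in the next cell, and Dusp6, the ERK phosphatase, at 1001 CPM was the third highest. Of a list of 32 other immediate early and dissociation genes, 6 were read in that cell and 1, Btg2, was highest in it. The summed level of that list there was 2281 CPM against a median of 2134. Tnf, Il1b and Btg2 were named after their values were seen. The chemokines Ccl3 and Ccl4, and Fosb, Egr2 and Nr4a1, were at 0 counts in it.

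Other features of that cell are given beside it. It had 485728 gene counts, the fewest on plate 2, 2251 detected genes (the 9th fewest) and a spike-in share of 7.33% (the 5th highest, where the median was 3.86%). Of the ranked genes, 180 (2.49%) were highest in it, the 4th most of any cell, where the median cell had 36. Among the 180 were 3 of the 7 frequent immediate early genes, of which Zfp36 is a ranked gene only through this cell. The cell was singled out by the immediate early genes, so that count of 3 is a description. Heat shock genes did not stand out in it: 0 of 12 were highest there, and their summed level was 2464 CPM against a median of 2940. Of the microglia markers 8 of 9 were read, Cx3cr1 at 4636 CPM and Csf1r at 3049, and of the gate genes Gpnmb (3191 CPM) and Itgam (10.3 CPM) but neither Clec7a nor Ptprc. Summed markers of border macrophages, monocytes, neutrophils, T, B, oligodendrocyte, neuron and endothelial cells were at 0, and the astrocyte gene Slc1a3 was at 216 CPM. The part of depth and RNA content in these levels was not tested.

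**Figure D4:**
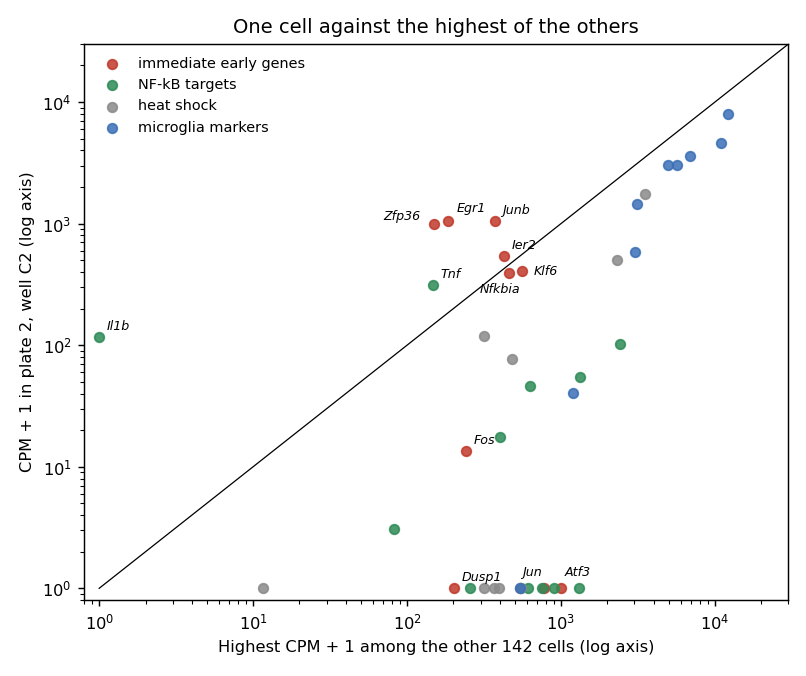
CPM + 1 in the cell of plate 2, well C2 (vertical log axis) against the highest CPM + 1 among all other cells (horizontal log axis), for 4 gene lists; the line marks equal values. Egr1, Zfp36, Junb, Ier2, Tnf and Il1b lie above the line, and the heat shock genes and microglia markers drawn lie below it; genes at 0 in every cell are not drawn.

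Of the next cells, those with 6 genes or a summed level of 1036 CPM or more, 5 are given first, with these genes in other combinations. C4 of plate 2 had 6 genes and a summed level of 1422 CPM, from Klf6 (560 CPM), Jun (357), Nfkbia (290), Atf3 (195), Ier2 (17.5) and Zfp36 (2 counts). A3 of plate 1 had 6 genes and 1036 CPM, with Jun at 449, Atf3 at 281 and Klf6 at 258. B3 of plate 1 had 5 genes and 1122 CPM, with Klf6 at 415, Atf3 at 263, Jun at 262 and Ier2 at 175. B7 of plate 1, with 5 genes and 1273 CPM, had Atf3 at 1002, Ier2 at 100.5 and Zfp36 at 93.6, with Jun at 0. B10 of plate 2 had 6 genes and 904 CPM, with Atf3 at 315.5, Junb at 185 and Jun at 0. Atf3, absent from C2, was read in these 5 cells and Jun in 3 of them, while Egr1 and Fos were at 0 in all 5. G12 and B8 of plate 1, at 1036 and 1058 CPM, also met the rule. Jun was read in both, and Atf3 was at 0 in B8. All were picked by their level or number of these same genes, so frequent reads in them are part of the choice. Over all cells Egr1 and Fos were read in 2.80% each, so their absence from so few cells does not set these apart.

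Pairs of the 7 frequent genes moved together only weakly. The 21 pairwise correlations of log2(CPM + 1) over 143 cells ran from -0.12 (Jun with Zfp36) to 0.24 (Junb with Zfp36), with a median of 0.10, beside a median of 0.02 over all 26024505 pairs of ranked genes (5th to 95th percentile -0.12 to 0.17). The median was 0.05 on plate 1, 0.18 on plate 2 and 0.11 without the cell in C2. A positive r on both plates was found for 15 pairs, and r of 0.2 or more on both plates for 0. Without C2, Junb with Zfp36 had 0.16. Ier2 with Zfp36 had 0.60 on plate 2 (0.47 without C2) and 0.02 on plate 1. In counts so sparse, correlations of this size are descriptions only.

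The pairs were also read as shares of cells. Atf3 was read in 44.7% of the 38 cells with Jun and 22.9% of those without, and Klf6 in 73.7% and 48.6%. Nfkbia was read in 60.98% of the cells with Atf3 and 36.3% of those without, and in 51.9% of the cells with Klf6 and 32.8% of those without. Jun ran the other way with Junb, which was read in 13.2% of cells with Jun and 21.9% of those without, and with Zfp36 (21.1% and 32.4%). In all, the second gene was more frequent with the first in 16 of 21 pairs (76.2%), beside 63.8% of all pairs of ranked genes that were not read in every cell.

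Genes most like each of the 7, by the mean of the within-plate r over 95 and 48 cells, were looked up among ranked genes. Jun was most like Ccl4, a chemokine that recruits monocytes and T cells (mean r 0.42, with 0.41 on plate 1 and 0.44 on plate 2), then Dyrk1a (0.36) and Pop5 (0.34). Atf3 was most like 5430435G22Rik (0.42) and Nln (0.38), and then Ccl4 (0.36, with 0.41 and 0.32). Junb had Alkbh2 (0.37), Chd9 (0.35) and Vti1b (0.33), and Ier2 had Klf3 (0.33), Metap1 (0.32) and Dhdds (0.32). Klf6 had Aldh3b1 (0.35), Cox16 (0.33) and Cfdp1 (0.33), and Nfkbia had Ufm1 (0.35), Golga4 (0.34) and Brwd1 (0.32). Zfp36 had Gins3 (0.34), Mast4 (0.32) and Mfn1 (0.32), of which Gins3 fell from 0.49 to 0.02 on plate 2 when C2 was left out.

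Ccl4 was the one gene listed for more than 1 of the 7. Of 28 cells with Ccl4, 19 had Jun (67.9%, 47.6 to 84.1), against 19 of the cells without Ccl4 (16.5%, 10.3 to 24.6), so 50.0% of Jun cells had Ccl4. On plate 1 the shares were 70.0% and 18.7%, and on plate 2, with 8 Ccl4 cells, 62.5% and 12.5%. Atf3 was read in 17 of the 28 (60.7%, 40.6 to 78.5) and in 24 of the others (20.9%, 13.9 to 29.4), with 60% and 21.3% on plate 1 and 62.5% and 20.0% on plate 2. Other genes were also more frequent in Ccl4 cells over both plates, Nfkbia with 64.3% and 38.3%, Ier2 with 32.1% and 19.1%, Klf6 with 64.3% and 53.04% and Zfp36 with 35.7% and 27.8%, while Junb had 14.3% and 20.9%. The plates differed in direction for Klf6, with 60% and 61.3% on plate 1 and 75% and 37.5% on plate 2. They also differed for Zfp36, with 40% and 22.7% on plate 1 and 25% and 37.5% on plate 2. Cells with Ccl4 had a median of 3282 detected genes and cells without it 3213. For Ccl3, the related chemokine read in 78 cells, Jun was read in 35.9% and 15.4% of cells with and without it, and Atf3 in 35.9% and 20%. On plate 2 the shares for Jun were 23.1% and 18.2%. Nfkbia was read in 52.6% and 32.3% and Zfp36 in 35.9% and 21.5%. Ccl4 was chosen from all ranked genes for its likeness, so these shares describe that choice and are not separate evidence.

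The plates were compared side by side as technical batches of 1 pool. Klf6 was read in 61.1% of cells of plate 1 and 43.8% of plate 2, Nfkbia in 40.0% and 50.0%, Zfp36 in 26.3% and 35.4%, Jun in 29.5% and 20.8%, Junb in 16.8% and 25%, Atf3 in 29.5% and 27.1%, and Ier2 in 22.1% and 20.8%, with intervals that overlap for each gene. The log2 ratio of pooled CPM, plate 2 over plate 1, was -0.33 for Klf6 and Jun, -0.25 for Atf3, -0.20 for Ier2, 0.57 for Nfkbia, 0.94 for Junb and 1.31 for Zfp36, beside a median of -0.08 over all genes at 10 CPM or more. A difference of at least 2-fold was seen for 1 of the 7, against 11.9% of 7616 such genes, and it was higher on plate 2, as for 3.61% of them, whereas 8.31% were higher on plate 1. That gene was Zfp36, which has a pooled CPM over 10 only through the cell in C2, with 7.86 CPM on plate 1 and 19.5 on plate 2, and without that cell plate 2 had 5.01 CPM and the log2 ratio was -0.65. Egr1 rested on it too, with 2.33 CPM on plate 1, 17.6 on plate 2 and 2.06 there without C2, while Junb on plate 2 went from 49.04 to 34.1 CPM.

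Other genes of the same families and pathways, in lists chosen by known function, gave the setting. Of 17 further AP-1 and CREB family genes the median was read in 11.9% of cells, led by Atf4 (36.4%), Atf6 (30.8%), Atf2 (25.2%) and Mafg (21.7%), and the inducible Fosb and Fosl1 were read in 0. Of 13 EGR, NR4A and KLF genes the median was 3.50%, led by Klf13 (72.7%), Klf3 (37.1%), Klf10 (30.8%) and Klf7 (16.1%), with Egr3, Egr4 and Nr4a3 in 0 cells. Among 9 dual specificity phosphatases the median was 1.40%, but Dusp3 (93.01%), Dusp6 (70.6%) and Dusp7 (21.0%) were frequent, and Dusp2 and Dusp4 were in 0 cells. A read in 0 of 143 cells allows a share of up to 2.55%.

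The NF-kB and mRNA decay lists ranged from a low to a higher median. Of 13 NF-kB subunits and feedback genes beside Nfkbia the median was 16.8%, led by Rela (40.6%), Cyld (39.2%), Nfkb1 (26.6%) and Nfkbib (26.6%). Of 18 NF-kB targets the median was 10.8%, 4 were read in at least 50% of cells, Bcl2a1b (90.9%), Cd83 (80.4%), Sod2 (69.2%) and Ccl3 (54.5%), and 6 in 0 cells, Il6, Ptgs2, Cxcl1, Cxcl2, Cxcl10 and Ccl5. Zfp36l1, the paralogue of Zfp36, was read in 97.2% of cells, and the list of ZFP36 family and mRNA decay genes had a median of 44.4% over 10 genes, with Elavl1 at 61.5%, Cnot8 at 50.3% and Hnrnpd at 49.7%. Kinases and factors upstream had a median of 30.1% over 19 genes, with Rps6ka1 at 68.5%, Elk3 at 62.9%, Map2k2 at 55.2% and Mapk3 at 52.4%.

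Heat shock and other dissociation genes ranged widely. Of 12 heat shock genes the median was read in 48.95% of cells, led by Hspa8 (100%), Hsp90ab1 (98.6%), Hspe1 (83.9%) and Hsp90aa1 (72.0%), whereas the heat-inducible Hspa1a and Hspa1b were read in 0 cells, and Dnajb1 and Hsph1, also heat-inducible, in 37.1% and 13.99%. Of 32 other immediate early and dissociation genes the median was 12.2%, with Sat1 at 99.3%, Rgs2 at 81.1% and Btg1 at 79.02%, and with Arc, Cyr61 and Pim1 in 0. The 10 immediate early genes had a median of 24.1%, and all genes read in any cell 16.1%. At 1 count, detection is a share of cells with a read, not of cells that express the gene.

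**Figure D5:**
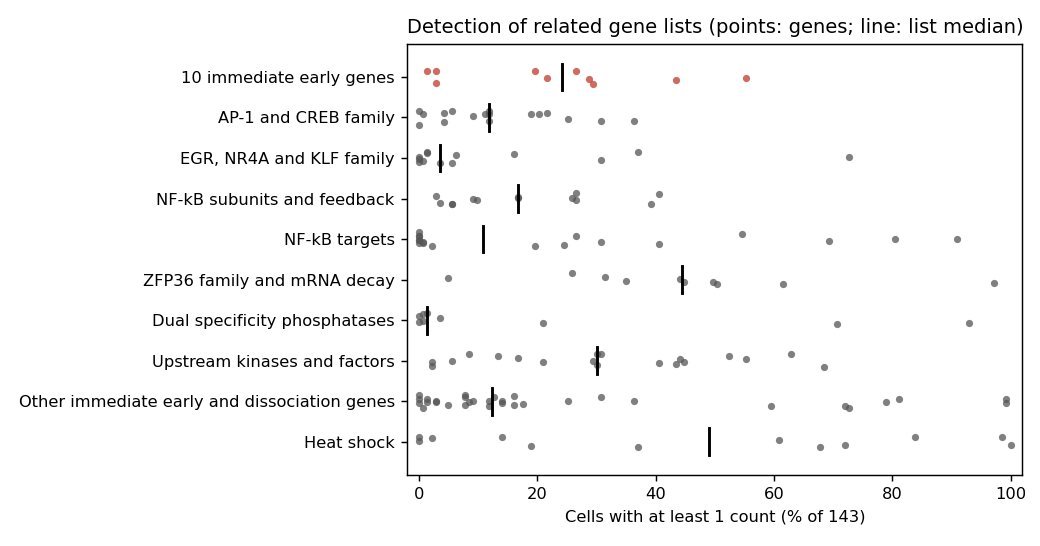
Share of the 143 cells with at least 1 count (horizontal axis, percent) for each gene of 10 lists, with points scattered vertically for legibility and a black line at the list median. The immediate early genes (red) run from 1.40% to 55.2% with a median of 24.1%.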

How the data were processed

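The authors deposited raw read counts, as whole numbers, in 1 table of 23337 gene rows and 92 spike-in rows. Per the submitters' processing notes, STAR 2.5.3a, HTSeq, Picard and Trim Galore 0.4.3 were used with mm10, while the annotation and strand setting are not given in the sources used here. Column sums equalled the label totals in 143 of 143 cells and 0 pairs of cells were identical. The age label gives postnatal day 7, though a pooled library name contains the word adult.

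From these counts, shares of cells (at least 1 count), CPM (Rn45s kept, spike-ins left out), the share held by the 5 leading cells and plate ratios were computed with Python 3.11.15, numpy 2.4.6, pandas 2.3.3 and scipy 1.17.1. Gene positions, exon lengths and 3′ UTRs came from GENCODE M21 on GRCm38. The members and lists were chosen with earlier results of these data known. Named are the members, the 4 most frequent genes of each list, defining genes in 0 cells, the 3 most like genes per member and the leading cells. A gene that meets this rule is not reported here. On simulated counts over 7215 genes, 84.5% of genes with planted bursts were recovered by the 5-cell share. Of genes raised 4-fold, 100% passed 2-fold between plates. Both effects were planted beyond the cut, so the simulation checks the computation only. Cells of 1 pool are not replicates, so no p-value was computed, and reads without molecular identifiers are not independent molecules. Alternatives were other thresholds, thinning, scalings, rows and single plates. Leaving out the cell in C2 was chosen after seeing the data.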

Additional observations from a re-analysis of the deposited data

How the results depend on the processing

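Values that answer a comparison kept within the bounds set for them under 19 of 22 alternatives, and 3 moved. Only shares of cells have an interval here, so for plate ratios and shares held by 5 cells the bounds are not a measured spread. Among the 19 is the median log2 plate ratio of the frequent genes. It went from -0.20 to 0.22 in wells of rows A to D, so its direction was not kept. At least 3 of the genes were at 100 CPM or more in 15.4% of cells, and the share was 27.97% with 50 CPM and 4.90% with 200 CPM. The median share held by the 5 leading cells was 33.3% over all cells and 76.96% on plate 2 alone, where 5 of 48 cells are counted. The ratio of Zfp36 between plates turned from 1.31 to -0.65 on the log2 scale without the cell in C2 of plate 2, an alternative chosen after seeing the data, and was 0.48 in wells of rows A to D. Of the values for single genes, 99 kept within these bounds, 10 moved and 1 reversed. Reversal was counted only for ratios of at least 2-fold. The Ier2 ratio, which went from -0.20 to 0.22 in rows A to D, is among the 99. The 10 were shares on single plates (7), the Zfp36 ratio in rows A to D, and the share of cells with Zfp36, 12.6% at 10 CPM and 21.7% after thinning, which left out 0 cells. No paired analysis was possible because all cells belong to 1 group and their numbers follow accession order. Depth bears most on the share of cells with Zfp36. Shares for Egr1 and Dusp1 did not change on thinning, and that of Fos was 2.098%.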

Other observations

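Egr2, the close relative of Egr1, was read in 9 cells (6.29%, 2.92 to 11.6) and Egr1 in 4. Its leading cells were A3 (463 CPM), F4 (409), E12 (317), B3 (189.9) and C3 (156) on plate 1. Of the 10 immediate early genes, these cells had 6, 1, 3, 5 and 2, and Egr2 was at 0 in C2 of plate 2, where Egr1 was highest. Nr4a1, an orphan nuclear receptor of the same early response, was read in 2 cells, at 127.9 CPM in D1 of plate 2 and 47.4 CPM in E12 of plate 1, the third Egr2 cell. Nr4a2 was read in 2 other cells, H2 and H1 of plate 1, at 58.2 and 27.3 CPM, and both had Jun. These genes were named after their values were seen, and no test was run on them.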
